A study of Mus musculus with 4 samples.

Results

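Transcription factors that establish or keep the melanocyte lineage were followed in B16-F10 mouse melanoma cells sorted by the amount of the receptor Met on the cell surface. The 10 factors are *Mitf*, *Sox10*, *Pax3*, *Sox9*, *Sox5*, *Sox2*, *Foxd3*, *Tfap2a*, *Lef1* and *Pou3f2*, out of the 20832 genes that could be named on the array. Probes were taken as every probe whose accession maps to one of these symbols in RefSeq, which gave 16 of 39429 probes. *Mitf*, *Pax3*, *Sox5* and *Tfap2a* had 2 probes each, *Pou3f2* had 3, and each of the other genes had 1.

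Both populations are B16-F10, an established pigmented melanoma line of C57BL/6 mice labelled as skin, grown in medium with serum. Cells were divided on a FACS Aria II into a Met-low and a Met-high population, each was cultured for 3 days with no further treatment, and total RNA of 2 independently prepared samples per population was labelled with Cy3 and read on Agilent one-colour arrays. The comparison asks whether a difference in surface Met goes with a difference in the program of the lineage. It is limited to 1 cell line and to a gate on 1 protein, and the RNA was taken after the culture and not at the sort. Each array gives a mean over the whole culture, so fewer cells that express a gene and less RNA per cell cannot be told apart.

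Melanocytes arise from the neural crest. PAX3 and SOX10 switch on *Mitf* in the precursors, Wnt signals add to this through beta-catenin with LEF1, and MITF then drives the enzymes and structural proteins of the pigment granule. FOXD3, SOX2 and BRN2 (the product of *Pou3f2*) are known from earlier crest cells, from glia or from poorly differentiated melanoma, where they oppose or precede MITF, and SOX9, SOX5 and TFAP2A modify the output of the core factors.

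A start of *Mitf* is given here because the levels of *Mitf* and of the factors known to act on it are the main values below. RefSeq (GRCm38.p6) lists starts of *Mitf* with 3 windows of 250 bases before them, all on the + strand. In the window before the start nearest the 3′ end, at chr6:97991533-97991782, capitals mark the letters CTTTGAT, a form of the LEF/TCF site, and TGACGTCA, the cyclic AMP response element.
*Mitf* window 3: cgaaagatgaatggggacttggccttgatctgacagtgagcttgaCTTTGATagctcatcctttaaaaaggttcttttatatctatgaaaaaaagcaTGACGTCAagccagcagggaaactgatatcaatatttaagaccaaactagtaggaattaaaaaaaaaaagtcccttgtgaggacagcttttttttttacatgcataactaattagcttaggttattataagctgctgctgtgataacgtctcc
The first base of CTTTGAT lies at -205 and that of TGACGTCA at -153 from the start, and these matches do not overlap. Both strands were searched for these letters and for ACAAAG and AACAAT (SOX factors), CACGTG and CATGTG (E-box forms bound by MITF), GCCNNNGGC (AP-2) and ATGCAAAT (POU factors). None of the other letters occurred in this window, and none of the searched letters occurred in *Mitf* window 1 (chr6:97806808-97807057) or window 2 (chr6:97929567-97929816). Of all 32851 promoter windows of this length, 3.21% hold CTTTGAT, 1.55% hold TGACGTCA and 9 windows (0.0274%) hold both. The shares for the other letters are 16.5% for ACAAAG, 9.42% for AACAAT, 6.02% for CACGTG, 12.3% for CATGTG, 13.7% for GCCNNNGGC and 1.60% for ATGCAAAT. A match is a description of the letters and says nothing on binding in these cells.
Among the 13 windows of the 7 factors with an entry, the remaining matches were few. *Foxd3* has TGACGTCA at -233 and CACGTG at -217, *Sox2* has ACAAAG at -206, *Lef1* has ACAAAG at -146 and CACGTG at -79 in window 4, and *Pou3f2* has ATCAAAG, the reverse complement of CTTTGAT, at -182. *Sox5* and *Tfap2a* had windows without a match, and *Sox10*, *Pax3* and *Sox9* had no entry in the set of promoter windows that was searched.

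Of the whole arrays, 50.01% to 53.6% of the spots lay well above background, the 75th percentile of intensity ran from 858 to 1331, and 0 spots were saturated. The 4 arrays shared 1 slide with Met-low at positions 1 and 2 and Met-high at positions 3 and 4, so the position and the population cannot be told apart. Intensities below are background-corrected and in arbitrary units. For comparison between arrays the log2 of each intensity was set against the 75th percentile of its array, so a level of 0 equals that percentile. A log2 ratio is the Met-high mean minus the Met-low mean, and a negative value means more in Met-low cells. With 2 arrays per population, p-values measure only the spread between these samples.
For the sorted receptor, *Met*, the study reported much more transcript in Met-high cells by quantitative RT-PCR after the same time in culture. On these arrays its transcript was at log2 levels of -0.26 and -0.89 in Met-low cells and 1.03 and -0.43 in Met-high cells. Its arrays overlapped, and the log2 ratio of 0.87 (standard error 0.51) did not pass the test (limma, Benjamini-Hochberg adjusted p = 0.333). The ratio rests on Met-high replicate 1, since it was 0.14 (adjusted p = 0.820) without that array, while without Met-high replicate 2 it was 1.61 and passed at an adjusted p of 0.0196. Without Met-low replicate 1 or 2 it was 1.19 and 0.56 and did not pass.
The 6 melanocyte markers tested, *Tyr*, *Tyrp1*, *Dct*, *Pmel*, *Mlana* and *Slc45a2*, were well above background on all 4 arrays, with summed intensities of 1589190 and 1823780 in Met-low and 1441280 and 1621540 in Met-high cells. Markers of other cells were mostly dim. One of 7 fibroblast markers was detected on all arrays (summed intensity 611 and 922 in Met-low, 317 and 362 in Met-high), 1 of 5 leukocyte markers with a probe (1866 to 2770 over the 4 arrays), 1 of 5 endothelial markers (5957 to 7477) and 0 of 4 keratinocyte markers (109 to 196). *Col1a2*, the fibroblast marker that was detected, was lower in Met-high cells (log2 ratio -1.10, adjusted p = 0.0311), a call lost without Met-low replicate 2 (adjusted p = 0.0803) and without Met-high replicate 1 (adjusted p = 0.0515).

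The lineage factors split into a group that was well above background throughout and a group that was not. *Mitf*, *Sox10*, *Pax3*, *Sox9*, *Sox5* and *Tfap2a* had a probe well above background on all 4 arrays, *Pou3f2* on 3 arrays, and *Sox2*, *Foxd3* and *Lef1* on 0 arrays. By probe, 8 were detected on 4 arrays, 1 on 3, 1 on 2 and 6 on none. A gene was tested if 1 population or both had it well above background on each array, which 7 of the 10 factors and 11958 of all genes met.
Of the 7 factors tested, 0 passed an adjusted p under 0.05 in limma, against a background of 5.77% of all genes tested. At an unadjusted p under 0.05 the count was 2 of 7, *Sox9* and *Sox10*, against 26.2% of all genes. One factor, *Sox9*, differed by more than 2-fold between the means, with more in Met-low cells, against 5.29% of all genes in that direction, 2.43% in the other and 7.73% in both. The mean was higher in Met-low cells for 5 of the 7 and in Met-high cells for 2, against 40.5% and 59.5% of all genes. Of these 2, *Pou3f2* entered the test only through Met-high cells, and its direction supports nothing. Over the 6 factors detected on all 4 arrays the median log2 ratio was -0.10. The median log2 ratio was -0.07 over the 7 factors and 0.10 over all genes, and the median size of the ratio, without its sign, was 0.25 over the factors and 0.30 over all genes. *Mitf*, *Pax3* and *Sox9* kept a negative ratio and *Sox10* a positive one in all 14 settings of background, scaling, filter, probes and arrays that were run. The sign of *Sox5* turned in 1 of 14 settings, that of *Tfap2a* in 3 of 14 and that of *Pou3f2* in 1 of 13.

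**Figure D1:**
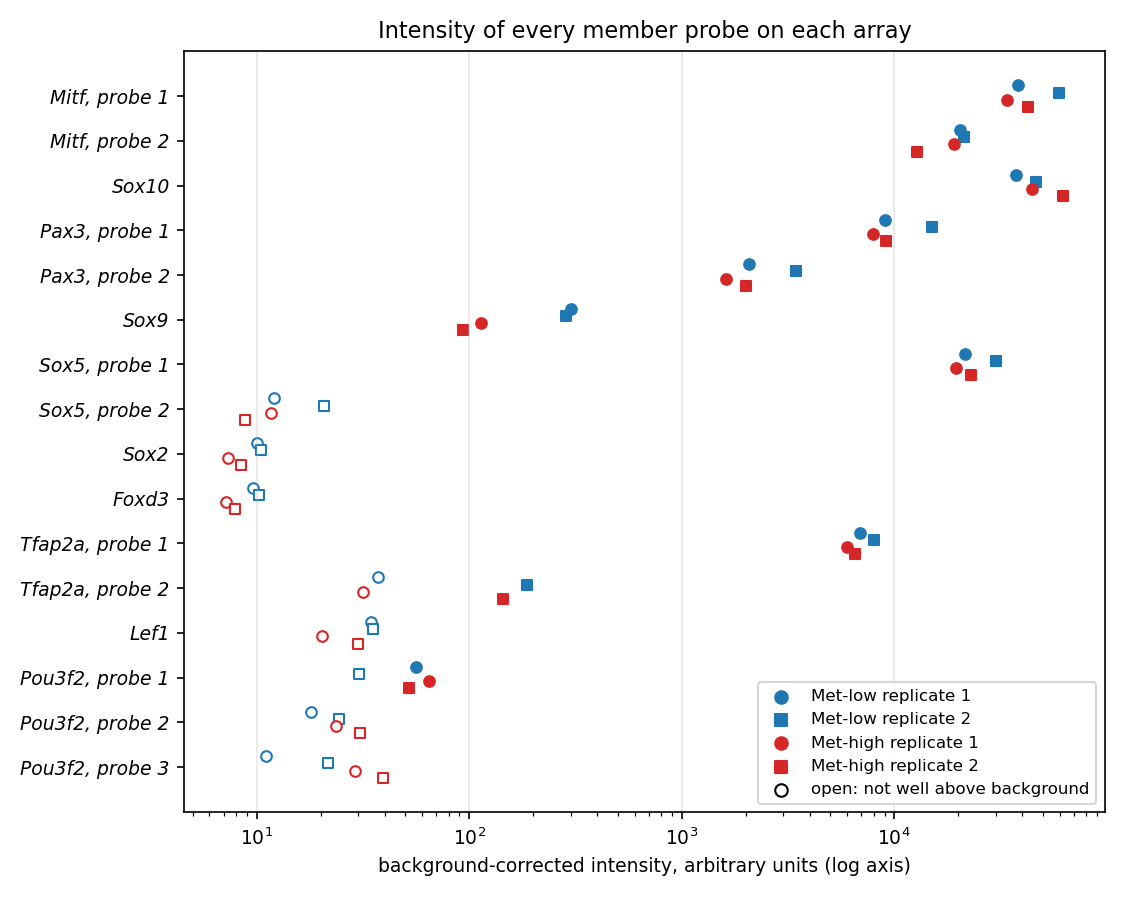
Background-corrected intensity (arbitrary units, log axis) of each of the 16 probes of the lineage factors on each of the 4 arrays. Blue marks are Met-low and red marks Met-high, circles are replicate 1 and squares replicate 2, and open marks were not well above background. The 10 rows with filled marks include *Mitf*, *Sox10*, *Pax3*, *Sox9*, *Sox5* and *Tfap2a*, and *Sox9* is the row of filled marks in which every blue mark lies more than 2-fold to the right of every red mark.

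In the plot of intensity by probe, the 4 marks of most detected factors lie close together relative to the axis, and the probes of *Sox2*, *Foxd3* and *Lef1* are open on every array.

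*Mitf* encodes the bHLH leucine zipper factor that controls pigment genes and survival of melanocytes. Its brighter probe (A_55_P2176838, NM_001113198) read 38361 and 59659 in Met-low cells and 33739 and 42637 in Met-high cells. After scaling, the log2 levels were 5.35 and 5.49 against 5.30 and 5.26, so that the Met-low pair lay above the Met-high pair by a small margin. The means were 5.42 ± 0.10 (SD, n = 2) and 5.28 ± 0.02 (SD, n = 2). The log2 ratio was -0.14 (95% interval -0.54 to 0.26, limma adjusted p = 0.613), and a 2-fold difference in either direction lies outside this interval. The arrays had this order for 3 of the 7 factors (*Mitf*, *Pax3* and *Sox9*) and for 22.6% of all genes tested, and the populations did not overlap in either direction for 58.3% of them.
The other *Mitf* probe (A_55_P2152437, same accession) read 20288 and 21171 in Met-low and 19074 and 12769 in Met-high cells. Met-high replicate 2 was the lowest on this probe and Met-high replicate 1 was the highest after scaling, at log2 levels of 4.47 against 4.43 and 3.99 in Met-low and 3.52 in Met-high replicate 2. The arrays therefore overlapped. The log2 ratio was -0.21 with a wide 95% interval of -1.19 to 0.77 (adjusted p over probes = 0.768), and leaving out 1 array at a time moved it from -0.69 to 0.26. Both probes had a negative ratio over the 4 arrays, and neither passed the test.

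SOX10, an HMG box factor, is required for the crest precursors of melanocytes and glia and activates *Mitf*. Its single probe (A_55_P2094729, NM_011437) read 37307 and 46671 in Met-low cells and 44408 and 62137 in Met-high cells. Before scaling these values overlapped, and after scaling the Met-high pair lay above the Met-low pair, at 5.69 and 5.81 against 5.31 and 5.13. The mean was 5.22 ± 0.12 (SD, n = 2) for Met-low and 5.75 ± 0.08 (SD, n = 2) for Met-high, which is a calculated 1.44-fold. The difference on the log2 scale was 0.53 (standard error 0.16, 95% interval 0.11 to 0.95, unadjusted p = 0.0215), which did not pass after limma's adjustment over all genes (adjusted p = 0.128). *Sox10* was the 1 factor of the 7 with the arrays in that order, which 35.7% of all genes had. Apart from the fit with the replicate number as a block, in which *Sox10* was called and which is given with the limits, the ratio ran from 0.39 to 0.62 and the adjusted p from 0.0665 to 0.399 over the settings of the processing.

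PAX3, a paired box factor, acts with SOX10 on *Mitf* and holds back pigment genes in precursor cells. The brighter of its 2 probes (A_55_P2033705, NM_008781) read 9042 and 14994 in Met-low and 7979 and 9141 in Met-high cells. The log2 levels were 3.26 and 3.49 against 3.22 and 3.04, and the populations did not overlap. The means were 3.38 ± 0.16 (SD, n = 2) and 3.13 ± 0.12 (SD, n = 2), and the log2 ratio of -0.25 (95% interval -0.69 to 0.19) did not pass the test (adjusted p = 0.412).
The second *Pax3* probe (A_51_P315734) lies on the array 10 times, so the error within an array can be seen. Its mean intensity was 2075 and 3464 in Met-low and 1610 and 1997 in Met-high cells, with a coefficient of variation over the spots of an array of 4.97% to 5.41%. The log2 levels were 1.14 and 1.38 against 0.91 and 0.84, again without overlap of the populations. The spots of 1 array differ by less than the samples do, and the test rests on the samples. The log2 ratio was -0.38 (standard error 0.17, 95% interval -0.83 to 0.06, adjusted p over probes = 0.271). Both probes of *Pax3* thus had the same sign, and neither passed.

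*Sox9* had the largest ratio among the tested factors. SOX9 is best known from cartilage, testis and hair follicle, and in skin it is expressed in melanocytes of some stages, where it can act on *Mitf* and *Dct*. Its probe (A_52_P214630, NM_011448, 10 spots per array) read 300 and 286 in Met-low and 114 and 93.0 in Met-high cells, with the Met-low pair well clear of the Met-high pair. The spots ran from 283 to 323 and from 251 to 352 on the Met-low arrays, and from 95.4 to 148 and from 79.7 to 117 on the Met-high arrays. Every Met-low spot thus lay above every Met-high spot, and the coefficient of variation over the spots was 4.72% and 9.73% in Met-low and 13.6% and 11.3% in Met-high.
On the log2 scale the means were -1.94 ± 0.40 (SD, n = 2) and -3.26 ± 0.47 (SD, n = 2). The calculated difference was 2.50-fold (95% interval of the log2 ratio -2.10 to -0.54), and its size was above that of 95.3% of all genes tested. The unadjusted p was 0.0069 and the limma adjusted p was 0.0743 over genes and 0.118 over probes, so *Sox9* did not pass the test. This gene is among those the study picked by a 2-fold difference on these same samples, and its ratio here is no independent evidence. The study also measured *Sox9* by quantitative RT-PCR and reported more of it in Met-low cells. By that method it reported no significant difference for *Mitf*, *Sox10* and *Pax3*.
The replicates of *Sox9* were apart from each other within each population, and the call depended on which were used. Without Met-low replicate 2 the log2 ratio was -1.61 with an adjusted p of 0.0270, and without Met-high replicate 1 it was -1.65 with an adjusted p of 0.0146. Without Met-low replicate 1 or Met-high replicate 2 it was -1.03 (adjusted p = 0.140) and -0.99 (adjusted p = 0.118). With the normexp background correction the ratio was -0.87 and under 2-fold.

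**Figure D2:**
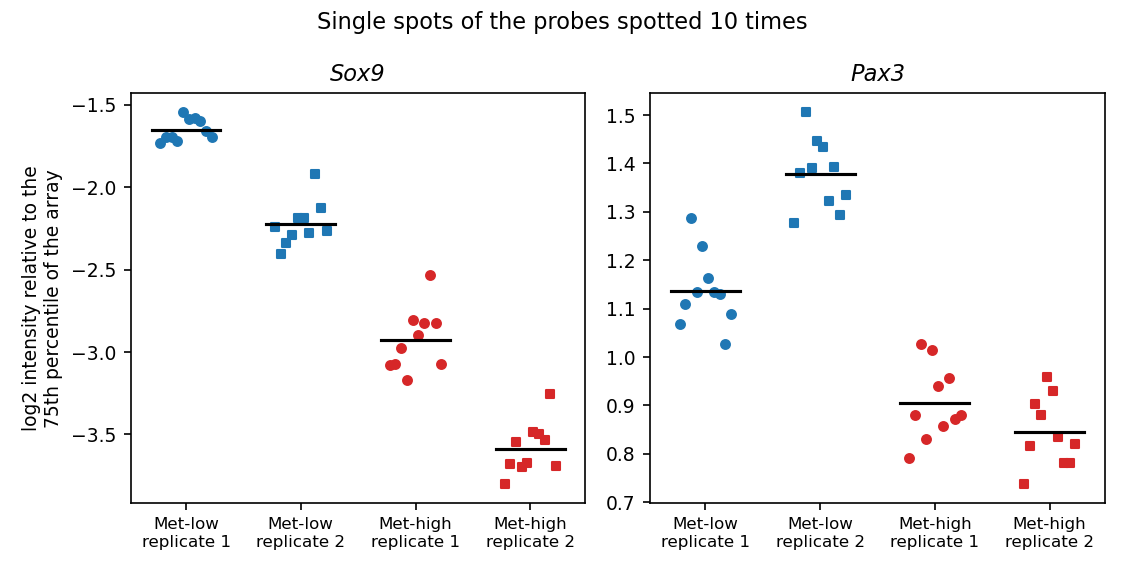
Log2 level, set against the 75th percentile of the array, for each of the 10 spots of the *Sox9* probe (left) and of the second *Pax3* probe (right) on each array, with black lines at the mean of the spots. The spots of *Sox9* in Met-low cells all lie above those in Met-high cells, whereas for *Pax3* the spots of Met-low replicate 1 reach down to the highest spots of Met-high replicate 1.

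The plot of single spots sets the error within an array against the distance between samples. For *Sox9* the Met-low means were -1.65 and -2.22 and the Met-high means -2.93 and -3.59, so the arrays of 1 population were nearly as far apart as the nearest arrays of different populations.

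SOX5 is a SOX factor without a transactivation domain that works with SOX9 in cartilage and dampens the action of SOX10 on melanocyte genes. Its brighter probe (A_55_P2156905, NM_011444) read 21540 and 30093 in Met-low and 19532 and 23022 in Met-high cells. The log2 levels of 4.51 and 4.50 against 4.51 and 4.37 overlapped. Its log2 ratio was -0.07 (95% interval -0.46 to 0.33, adjusted p = 0.822). A second probe of the same accession (A_51_P500318) was not well above background on any array, with intensities of 12.1, 20.8, 11.7 and 8.80 in the same order, so the 2 probes of *Sox5* disagree on whether the transcript was detected.

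TFAP2A, an AP-2 factor, is needed in early neural crest and acts beside MITF on pigment genes. Its brighter probe (A_55_P1964812, NM_001122948) read 6910 and 8001 in Met-low and 6000 and 6565 in Met-high cells. These are log2 levels of 2.87 and 2.59 against 2.81 and 2.56, in which the replicates differ more than the populations. Its log2 ratio was -0.05 (95% interval -0.53 to 0.43, adjusted p = 0.896). The probe of the other accession (A_55_P2199463, NM_011547) read 37.0 and 188 in Met-low and 31.7 and 144 in Met-high cells. It was well above background on replicate 2 of each population and on neither replicate 1, and it was not tested.

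The factors of earlier crest cells were dim. BRN2, encoded by *Pou3f2*, is a POU factor of neural precursors that is linked to invasive melanoma. One of its 3 probes (A_55_P1986907, NM_008899) passed the filter, at 56.1 and 30.2 in Met-low and 64.4 and 52.1 in Met-high cells, with Met-low replicate 2 not well above background. The log2 levels of -4.07 and -5.46 against -3.74 and -4.41 overlapped. Its log2 ratio was 0.69 with a wide 95% interval of -0.57 to 1.95 (adjusted p = 0.422). It rests on Met-low replicate 2, since it was -0.0049 without that array. Without Met-low replicate 1 it was 1.39, against a lone Met-low array not well above background. *Pou3f2* entered the test only through Met-high cells, so the direction of its ratio supports nothing. The other probes of *Pou3f2* read 17.9, 24.4, 23.6 and 30.6 (A_55_P2103132) and 11.05, 21.7, 29.1 and 39.4 (A_55_P2140016) on Met-low replicates 1 and 2 and Met-high replicates 1 and 2, not well above background on any array.
SOX2 is a stem cell factor that is also found in Schwann cell precursors. Its probe (A_52_P307739, NM_011443) read 10.0 and 10.5 in Met-low and 7.32 and 8.44 in Met-high cells. FOXD3, which represses *Mitf* in crest cells that become glia, read 9.58 and 10.3 against 7.18 and 7.94 (A_55_P2160815, NM_010425).
LEF1, the nuclear partner of beta-catenin, read 34.7 and 35.4 in Met-low and 20.4 and 29.9 in Met-high cells (A_51_P420400, NM_010703). For these 3 genes every array was without a signal well above background, and no ratio is given for them. The lowest signal that was well above background on the same arrays was 39.1 and 41.4 in Met-low and 27.6 and 29.3 in Met-high cells.

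**Figure D3:**
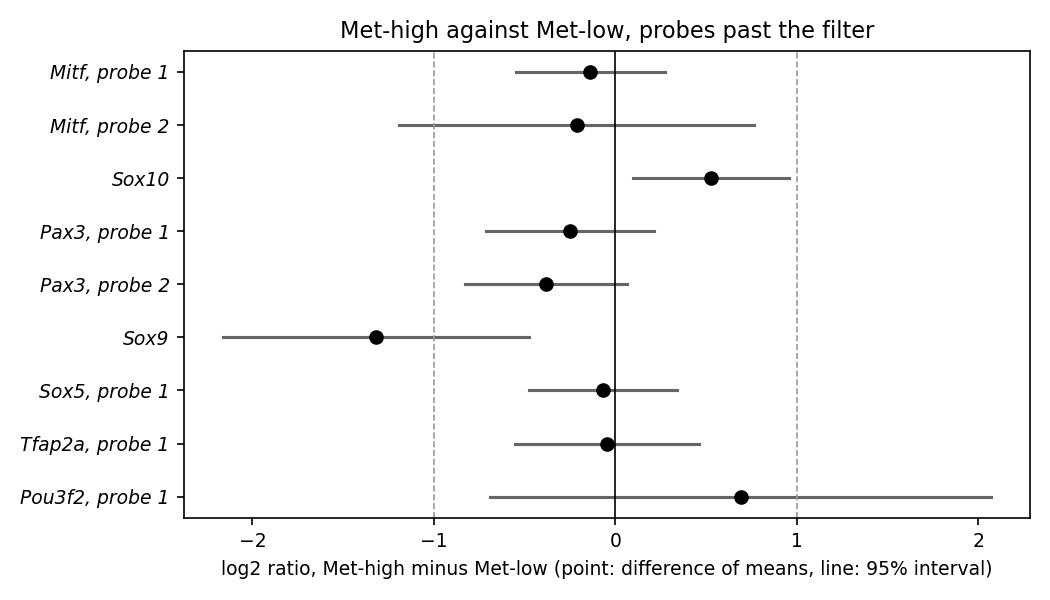
Log2 ratio of Met-high over Met-low for the 9 probes of the lineage factors past the filter, with the 95% interval of the fit over all probes. The solid line marks no difference and the dashed lines a 2-fold difference, and the intervals of *Sox10* and *Sox9* leave out 0 while 0 probes passed an adjusted p under 0.05.

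Fitted by probe in limma, 0 of the 9 probes passed an adjusted p under 0.05, against 2.63% of 19796 probes. At an unadjusted p under 0.05 the count was 2 of 9 (22.2%), against 22.5% of all probes, and 1 differed by more than 2-fold, against 7.97%. In the plot of ratios 6 of the 9 intervals stay within a 2-fold difference on both sides, those of *Sox10*, both *Pax3* probes and the brighter probes of *Mitf*, *Sox5* and *Tfap2a*. The intervals of the second *Mitf* probe, *Sox9* and *Pou3f2* reach past it.

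Other genes of the same families add 32 genes, of which 14 were tested and 16 were not detected on any array. Of the 14, 12 were detected on all 4 arrays, and 1 of these passed the test, *Sox4*, with more in Met-low cells, against 3.82% of all genes tested in that direction. The median over the 12 was -0.04 on the log2 scale. The other 2, *Sox17* and *Tcf7*, entered the test only through the population in which they were high. They are given as bounds, and their p-values support nothing. A gene at background in 1 population could be tested only if it was above background in the other, which favours that direction.
SOX4, a SoxC factor of progenitors, read 887 and 1164 in Met-low and 358 and 442 in Met-high cells. The Met-low pair lay above the Met-high pair, and *Sox4* fell by 1.15 on the log2 scale from Met-low to Met-high (standard error 0.16, adjusted p = 0.0222). A second probe gave -1.41 without passing over probes (adjusted p = 0.227), and the call was lost without Met-low replicate 1 (adjusted p = 0.0571) and with the mean of the gene's probes (adjusted p = 0.0819).
SOX17, known from endoderm and endothelium, read 134 and 48.9 in Met-low cells and 5.64 and 6.09 in Met-high cells, where it was not well above background. Met-low cells had at least 2.49-fold more of it (limma adjusted p = 0.0397), a call lost with the normexp background (adjusted p = 0.152) and with quantile normalization (adjusted p = 0.0613). The size of the bound rests on Met-low replicate 1, since it was 1.26-fold without that array and 4.90-fold without Met-low replicate 2.
TCF1, encoded by *Tcf7* and the closest relative of LEF1, ran the other way. It read 10.9 and 17.9 in Met-low cells, not well above background, and 42.7 and 55.8 in Met-high cells. That is at least 1.39-fold more in the latter (adjusted p = 0.00827, and 0.163 with the normexp background). The 2 further TCF genes, *Tcf7l1* (log2 ratio -0.41, adjusted p = 0.428) and *Tcf7l2* (0.28, adjusted p = 0.473), did not pass. Dimmer probes of *Tcf7l2* had the opposite sign, at -0.52 and -0.38, and did not pass over probes (limma adjusted p = 0.543 and 0.614).
The relatives closest to MITF did not pass either. *Tfe3* had a log2 ratio of -0.06 (95% interval -0.57 to 0.45), *Tfeb* had 0.57 (95% interval 0.16 to 0.99, adjusted p = 0.113) with the Met-high pair on top, and *Tfec* was not detected on any array. *Sox8*, the third SoxE gene beside *Sox9* and *Sox10*, was not detected on any array. *Sox6* and *Sox13*, which share the SoxD group with *Sox5*, had log2 ratios of -0.48 (adjusted p = 0.424) and 0.34 (adjusted p = 0.546) with overlapping arrays.

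The known targets of these factors were then compared in the same fit. Of 24 genes known as targets of MITF, 22 were tested, all of them well above background on the 4 arrays. In each direction 1 passed, against 3.82% of all genes tested with more in Met-low and 1.95% with more in Met-high cells. The means of 10 were higher in Met-low and of 12 in Met-high cells, and the median log2 ratio was 0.03.
By their brightest probes, the pigment genes at the centre of this list differed between the populations by less than their error. The log2 ratio was -0.04 for *Tyr* (95% interval -0.54 to 0.47), the rate-limiting enzyme of melanin synthesis, 0.06 for *Tyrp1* (-0.38 to 0.50) and -0.06 for *Dct* (-0.61 to 0.49), both further enzymes of that pathway. It was 0.08 for *Pmel* (-0.44 to 0.61), the fibril protein of the melanosome, and 0.10 for *Mlana* (-0.32 to 0.52), a melanosome protein. For the brightest probe of each of these 5 genes the arrays of the populations overlapped and the interval leaves out a 2-fold difference. A second probe of *Tyr* gave -0.35 (limma adjusted p over probes = 0.307), with the Met-low pair above the Met-high pair. A second probe of *Dct* gave -0.25 (adjusted p over probes = 0.552) with overlapping arrays.
*Trpm1*, a cation channel gene whose intron holds a microRNA, read 10899 and 14973 in Met-low and 26128 and 31115 in Met-high cells and rose by 1.36 on the log2 scale, with a standard error of 0.16 and an adjusted p of 0.0156. Its probes disagreed, with log2 ratios of 0.73 and -0.33 for the others, and with their mean the ratio was 0.59 and did not pass (adjusted p = 0.104). *Myo5a*, the motor that carries melanosomes, read 14470 and 17122 in Met-low and 5599 and 7186 in Met-high cells and fell by 1.11 on the log2 scale (standard error 0.17, adjusted p = 0.0294). Without Met-low replicate 1 its adjusted p was 0.0828. *Ppargc1a*, a coactivator of mitochondrial genes, had a log2 ratio of -1.06 (adjusted p = 0.0636), past 2-fold but not past the test. Its second probe gave -0.66 and the mean of its probes -0.86, both under 2-fold. It passed with a mean-variance trend (adjusted p = 0.0397) and with the replicate number as a block (adjusted p = 0.0225).

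Genes known as SOX10 targets in crest derivatives numbered 13, of which 8 were tested. Of these 1 passed, with more in Met-low cells, against 3.82% of all genes tested in that direction. The median over the 8 was -0.05 on the log2 scale, and 5 of the 13 were detected on no array.
*Mbp*, myelin basic protein, read 337 and 544 in Met-low and 53.3 and 60.5 in Met-high cells. It fell by 2.72 on the log2 scale (standard error 0.17, limma adjusted p = 0.00656). A second, dimmer probe gave -4.18. Its detection in Met-high cells is not reported here, so the size of that ratio may be set against signal at background. *Sox10* itself, as given above, had a ratio of the opposite sign that did not pass. The pigment genes on the same list, *Tyr*, *Dct* and *Mitf*, did not pass. *Gjb1* had a positive log2 ratio of 0.64 (95% interval 0.07 to 1.22, limma adjusted p = 0.161), with the Met-high pair above the Met-low pair. *Erbb3* (-0.28), *Mia* (0.24) and *Pou3f1* (-0.03) had overlapping arrays. Over the 8 tested, the mean was higher in Met-low cells for 6 and in Met-high cells for 2.
*Mbp* is also a marker of Schwann cells, and 3 markers of that cell type, *Mbp*, *S100b* and *Pmp22*, had summed intensities of 21694 and 31798 in Met-low and 6953 and 11177 in Met-high cells. All 3 were detected on the 4 arrays. Most of each sum was *S100b*, which read 18903 and 28352 in Met-low and 5775 and 9319 in Met-high cells. The sums thus mainly follow that gene and are not a measure of Schwann cells. *S100b* passed as *Mbp* did (log2 ratio -1.46, adjusted p = 0.0183), and *Pmp22* did not (-0.71, adjusted p = 0.103). The part of these markers in the values of *Sox10* or *Sox9* was not tested.

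Of 10 genes known as cartilage targets of SOX9, SOX5 and SOX6, 5 were detected on no array and 4 were tested. Of the 4, 1 passed, with more in Met-low cells, against 3.82% of all genes tested in that direction. *Col9a1*, a chain of collagen IX, read 343 and 418 in Met-low and 85.8 and 152 in Met-high cells and fell by 1.53 on the log2 scale (standard error 0.22, adjusted p = 0.0241). *Col2a1*, the main cartilage collagen, read 131 and 88.1 against 55.5 and 45.3, a log2 ratio of -0.90 (95% interval -1.95 to 0.15, adjusted p = 0.242) without overlap of the populations, and without Met-low replicate 2 it was -1.43 and passed (adjusted p = 0.0427). *Col9a2* (0.04) and *Col11a2* (0.40) had overlapping arrays. The median log2 ratio of the 4 was -0.43.

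Targets of beta-catenin with LEF1 or TCF factors numbered 14, of which 7 were tested. Of the 5 that were detected on all 4 arrays, *Ccnd1*, *Notum*, *Myc*, *Znrf3* and *Tnfrsf19*, 0 passed in limma, against 5.77% of all genes tested. Their median log2 ratio was 0.05. The other 2 entered the test through Met-high cells, where they were high, and their direction supports nothing. One was *Tcf7*, described above, and the other was *Axin2*, a feedback inhibitor of the pathway, which read 42.0 and 67.4 in Met-low and 76.4 and 103 in Met-high cells (log2 ratio 0.93, standard error 0.16, adjusted p = 0.0397). *Axin2* was well above background on 1 of the 2 Met-low arrays, and its call held in 5 of 13 settings, with an adjusted p of up to 0.185. It was lost without any 1 of the 4 arrays. The median log2 ratio of all 7 was 0.16.

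**Figure D4:**
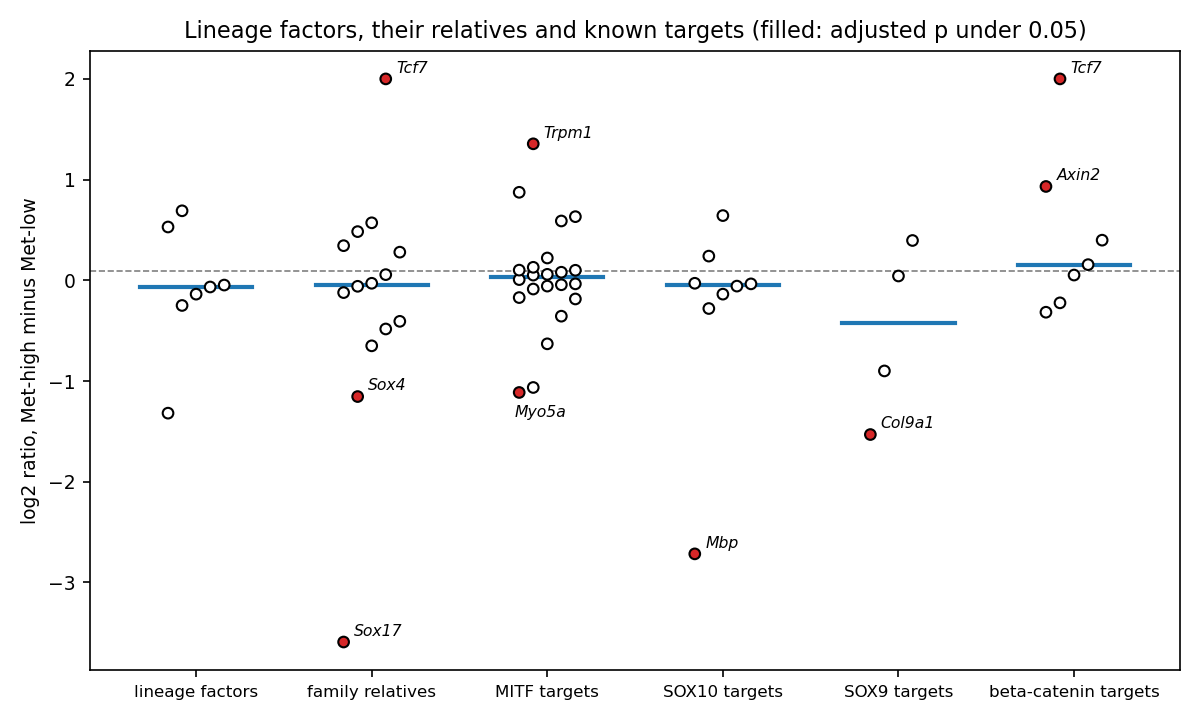
Log2 ratio of Met-high over Met-low for each tested gene of the lineage factors, their relatives and 4 lists of known targets. Red points passed an adjusted p under 0.05, blue lines are the medians of the lists (-0.07, -0.04, 0.03, -0.05, -0.43 and 0.16 from left to right), the dashed line is the median of all genes (0.10), and the points of *Sox17* and *Tcf7* are fitted values against a population at background.

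The plot of targets shows 0 red points among the lineage factors and 1 to 3 in each other list. *Mitf*, *Dct* and *Tyr* stand among the SOX10 targets as well, and *Tcf7* stands in 2 lists, so the lists are not independent of each other.

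**Figure D5:**
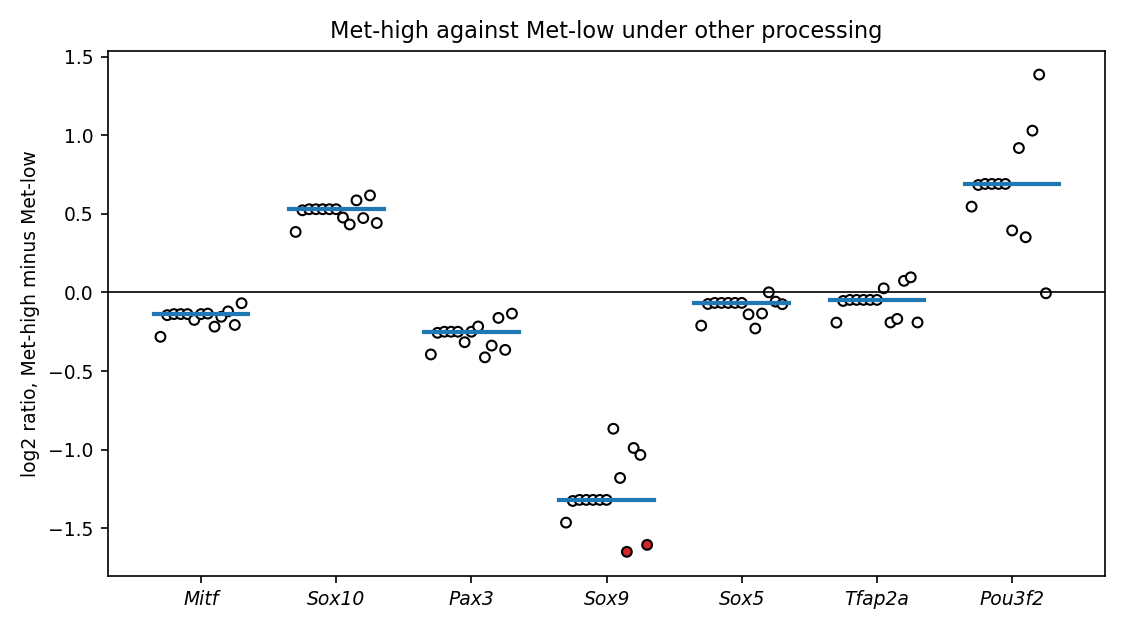
Log2 ratio of Met-high over Met-low of the 7 tested factors in the reported fit (blue line) and in each alternative of background, scaling, filter, probes and arrays (circles, red where the adjusted p was under 0.05). The 2 red circles are those of *Sox9* without Met-low replicate 2 and without Met-high replicate 1.

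The plot of alternatives shows *Mitf* between -0.28 and -0.07, *Sox10* between 0.39 and 0.62, *Pax3* between -0.41 and -0.13 and *Sox9* between -1.65 and -0.87. *Pou3f2* had the widest range, from -0.0049 to 1.39.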

How the data were processed

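The 4 arrays were one-colour Agilent mouse arrays. As deposited, per the file headers, each file is the scanner output of Feature Extraction 11.0.1.1 (the labels name 10.7.3.1), with a background-corrected Cy3 intensity per spot on a linear scale and flags for outlier, saturated and well-above-background spots. The authors also deposited log2 values, scaled to the 75th percentile of each array and centred on the median of each probe, which served as an alternative.

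From 43020 spots that are not controls, intensities were floored at 0.01 (0 spots changed), taken to log2 and set against the 75th percentile of the array. Between 207 and 232 flagged outlier spots per array were left out, and spots of a probe were averaged. Accessions named 27427 of 39429 probes through RefSeq (GRCm38.p6, names only), and 12002 had no match. The brightest probe stood for a gene. Genes detected on each array of 1 population or more were compared with limma 3.58.1 (R 4.3.3), adjusted by the Benjamini-Hochberg method over 11958 genes, or over 19796 probes for single probes, at an adjusted p under 0.05. All p-values are two-sided, and the precision is limited by 2 arrays per population. For a gene below background in a population, the ratio is a bound against the lowest detected signal of each array. No depth in reads exists for arrays. On simulated data for Met-high against Met-low with 11958 genes, the fit recovered 3 of 100 genes changed by 1 on the log2 scale. It recovered 67 of 100 changed by 2 and called 3 unchanged genes. Fewer genes were changed in the simulation than the 690 called in the real fit, and its noise was independent between arrays. These shares therefore do not give the recovery in the real comparison.

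The factors, lists and tests were chosen with earlier results of these data known. All 10 factors are named with every probe, and from other lists the genes past the test or past 2-fold, the central pigment genes, the markers, and the closest relatives of *Mitf*, *Sox5*, *Sox9*, *Sox10* and *Lef1*. Others, such as *Col2a1*, *Gjb1*, *Rxrg*, *Zeb2* and *Axl*, were named after their values were seen. Some genes of the lists are not reported here. Alternatives were a normexp background (offset 50, on median intensities), quantile normalization, the percentile over detected probes, other filters, outlier spots left in, a mean over the probes of each gene, the authors' log2 values, each array left out, the replicate number as a block, and a mean-variance trend. Figures used Python 3.11.15, numpy 2.4.6, pandas 2.3.3 and matplotlib 3.10.9.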

Additional observations from a re-analysis of the deposited data

How the results depend on the processing

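Arrays were left out in turn, with a lone array assumed to vary like the others. This gave 155 to 264 genes called higher in Met-high cells (155 without Met-low replicate 1, 233 with all arrays), 0 to 1 lineage factor called by gene, and 1 to 2 past 2-fold by gene and by probe. The call is *Sox9* without Met-low replicate 2 or Met-high replicate 1, and the second factor past 2-fold is *Pou3f2* without Met-low replicate 1. The medians then ran from -0.13 to 0.12 for MITF targets and from -0.78 to -0.12 for SOX9 targets. The normexp background left 314 and 125 genes past 2-fold (higher in Met-low and in Met-high), in place of 633 and 291, and 0 lineage factors. With no filter, 7 and 0 genes were called in limma (1463 and 1197 at an unadjusted p under 0.05) and 1398 and 658 were past 2-fold. Of the factors 2 probes were then past 2-fold, of *Sox9* and *Pou3f2* in opposite directions, and the median was 0.087 for SOX9 targets and -0.19 for beta-catenin targets. Detection on all arrays left 172 genes past 2-fold higher in Met-high cells. The percentile over detected probes moved the median of all genes from 0.10 to -0.05, called 143 genes higher in Met-high cells and put the median of MITF targets at -0.11. Quantile normalization put the median of the factors at -0.22, and a mean-variance trend called 392 genes higher in Met-high cells. The replicate numbers are not stated to pair samples. Over 11947 genes, the difference of replicate 1 and replicate 2 had r = 0.54 between the populations. With the replicate block, 1580 and 1976 genes were called, with 2 factors among them by gene (*Sox9*, adjusted p = 0.00593, and *Sox10*, adjusted p = 0.0410) and 1 by probe (*Sox9*, adjusted p = 0.0185). The cause of these shifts was not tested. Of 644 values of single genes and probes under these settings, 587 kept their side of the threshold, 27 lost and 30 gained a call, and 0 called values turned sign. Signal over background limits *Sox2*, *Foxd3*, *Lef1* and *Pou3f2*.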

Other observations

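Other transcription factors of the neural crest and the melanocyte lineage were measured beside the factors above. Of 30 such genes, 20 were tested and 7 were detected on no array, and the median log2 ratio was 0.11. By their brightest probes, 1 of the 20 passed the test, with more in Met-high cells, against 1.95% of all genes tested in that direction. The gene that passed was *Etv4*, an ETS factor known as a response gene of ERK signalling, which read 1775 and 2727 in Met-low and 5226 and 7223 in Met-high cells. It rose by 1.68 on the log2 scale (standard error 0.16, adjusted p = 0.00988), with 1.72 on its second probe. The probes of *Rxrg* differed in size. The brighter gave a log2 ratio of 0.46 and did not pass (limma adjusted p = 0.253). The dimmer gave 2.62 and passed over probes (limma adjusted p = 0.0476), and its detection on each array is not reported here. *Snai2*, a repressor of epithelial genes that is needed by melanoblasts, read 790.5 and 876 in Met-low and 325 and 300 in Met-high cells (log2 ratio -1.22, adjusted p = 0.0532), past 2-fold but not past the test. Its adjusted p ran from 0.00695 with the replicate block to 0.211 with no filter, and it passed without Met-low replicate 2 (0.0340) and without Met-high replicate 1 (0.0155). *Zeb2*, a zinc finger factor of melanocyte differentiation, had a log2 ratio of -0.85 (adjusted p = 0.0533, and 0.0136 to 0.226 over the alternatives). The second probe of *Zeb2* gave a larger log2 ratio of -1.57, past 2-fold, without passing over probes (adjusted p = 0.148). *Twist1*, *Zeb1*, *Tbx3* and *Irf4* were at background on all 4 arrays.

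Genes used as markers of the MITF-low, invasive state of melanoma numbered 15, of which 8 were tested. In limma 0 of these passed an adjusted p under 0.05, against 5.77% of all genes tested. At an unadjusted p under 0.05 the count was 4 of 8, against 26.2% of all genes tested. *Thbs1*, thrombospondin 1, had a log2 ratio of -1.03 (adjusted p = 0.0845) and passed without Met-low replicate 2 (adjusted p = 0.0279). *Axl*, a receptor kinase on the same list, had a ratio of the opposite sign, 0.80 (95% interval 0.38 to 1.21, adjusted p = 0.0574, and 0.0140 to 0.237 over the alternatives), and the Met-high pair of arrays lay above the Met-low pair. The median log2 ratio of the 8 genes was -0.34, and *Wnt5a*, *Tnc* and *Egfr* were at background on all 4 arrays.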
